A study of Mus musculus with 12 samples.

Results

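The colon transcriptome of mice given thymopentin during colitis from dextran sulfate sodium (DSS) was compared with that of mice given normal saline. The members of this comparison are the 13745 genes, of 55335 in the deposited table, whose FPKM averaged at least 1 over the 6 DSS libraries. FPKM is a fragment count scaled by the length of the transcript and the size of the library. The DSS thymopentin group held 3 libraries (DSS with thymopentin) and the DSS saline group 3 (DSS with normal saline). All were colon of mice labelled wild type (WT) and with colitis, so every group carries colitis and no library of an uninflamed colon was used. The other 6 of the 12 libraries are from colitis raised by trinitrobenzene sulfonic acid (TNBS), 3 with thymopentin and 3 with saline, and serve here to share the estimate of spread and to test whether a response differed between the models. The sources used here do not give dose, timing, strain, sex, age or hour of collection. No label says that the 3 libraries of a group came from separate animals, so the p-values measure the spread between these libraries, which may be technical.

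Thymopentin is a short synthetic peptide copied from thymopoietin, a thymic protein, and is used as a modulator of T cell function. DSS is a sulfated polysaccharide that injures the colon epithelium and lets gut bacteria reach the tissue beneath it. The injured mucosa then makes cytokines, draws in leukocytes and, as it heals, refills its crypts by division of progenitor cells. The series title names neutrophil extracellular traps, webs of chromatin and granule protein that neutrophils release, as the question of the study.

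Across genes, libraries of 1 group correlated at 0.963 to 0.976 on the log2(FPKM + 1) scale, and libraries of different groups at 0.938 to 0.951. All thymopentin libraries parted from all saline libraries on the leading principal component of the 6, which held 47.1% of their variance. Colon epithelium markers were abundant in all 6, with Vil1, of the microvillus core, at 165 to 196 FPKM with thymopentin and 156 to 186 with saline, and Krt20, a keratin of differentiated surface cells, at 307 to 463 with thymopentin and 298 to 457 with saline. Genes of the mitochondrial genome took 24.5% to 27.7% of the summed FPKM in thymopentin libraries and 28.6% to 33.3% in saline libraries. The summed FPKM were 446364 to 475600 with thymopentin and 484974 to 532510 with saline, and the part that this shift has in any result below was not tested. In bulk tissue, fewer cells of a type and less RNA per cell cannot be told apart.

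Thymopentin and saline libraries differed in many genes. On log2(FPKM + 1), 2372 genes were called at a limma adjusted p under 0.05, which is 17.3% of those tested, and 4686 had an unadjusted p under 0.05. Of the called genes 1729 rose with thymopentin (12.6% of tested genes) and 643 fell (4.68%). These shares are the background for the counts of gene lists below, and no list count was tested against them. The 6 libraries did not overlap between groups in 5476 genes (39.8%). The median log2 fold change of all tested genes was 0.11, so the balance of rises and falls depends on the scaling. Rises made up 72.9% of the calls on the deposited FPKM, 51.5% after quantile normalization (1125 rises, 1058 falls) and 43.4% after median-ratio rescaling (810 rises, 1056 falls). No called gene changed sign under either scaling, and this shift has been subtracted wherever a list median below is called relative to all genes. The number of calls also rested on single libraries: it was 919 without DSS saline 3, 1005 without DSS thymopentin 2, 1294 without DSS thymopentin 3 and 1404 without DSS saline 1. No exact permutation test was used, because at 3 against 3 its smallest possible p is 0.1.

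**Figure D1:**
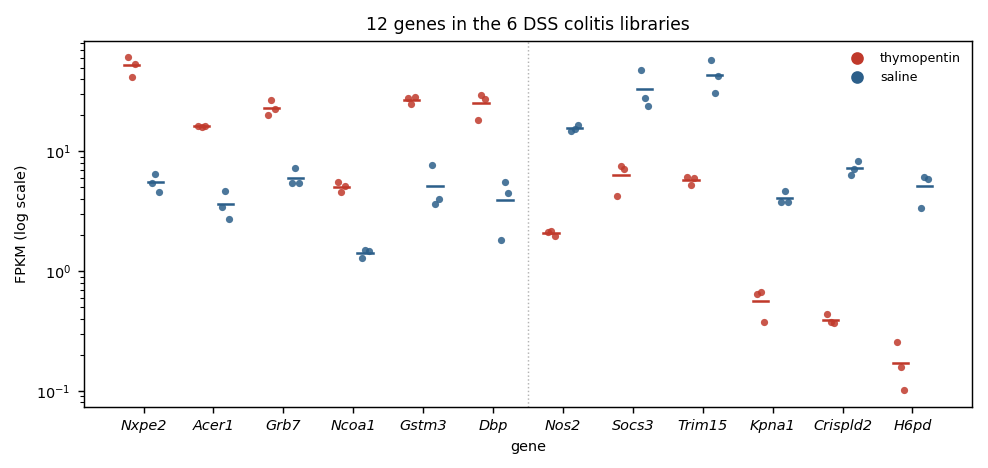
FPKM on a log scale (y axis) of 12 named genes (x axis) in the 3 DSS thymopentin libraries (red, left) and the 3 DSS saline libraries (blue, right), with a bar at each group mean. The 6 genes left of the dotted line were higher and the 6 on the right lower in every thymopentin library than in any saline library.

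Several mediators of mucosal inflammation fell with thymopentin. All 8 tested genes of the list of inflammatory cytokines and mediators lay lower, with a list median of -1.33 relative to all genes. Of them 4 passed the test (Nos2, Tnf, Il22 and Il1b). Only these 8 of 19 listed genes averaged at least 1 FPKM over the 6 DSS libraries. A gene near 0 with thymopentin, such as Il22, passed that filter only through its saline values. Part of the count of genes lower, and of the median, can therefore come from the filter. Nos2, the inducible nitric oxide synthase of inflamed epithelium and macrophages, was at 2.11, 2.16 and 1.97 FPKM in the thymopentin libraries, against 14.8, 15.3 and 16.7 in the saline libraries (log2 fold change -2.43 ± 0.19 SE, limma adjusted p = 0.000115). The 3 libraries of each group lay close together and far from the other group. Tnf, a central cytokine of colitis, had 1.57, 3.99 and 2.9 FPKM with thymopentin and 7.39, 7.39 and 7.73 with saline (log2 fold change -1.2 ± 0.21 SE, limma adjusted p = 0.00574). Il22, a lymphocyte cytokine whose receptor sits on epithelial cells, was listed at 0, 0.236 and 0 FPKM with thymopentin, against 13.1, 5.59 and 0.969 with saline. In reads recovered from the authors' normalized values that is 0, 9 and 0 with thymopentin and 606, 239 and 42 with saline, so the saline libraries spread widely among themselves. Il22 passed with 12 libraries in the model (limma adjusted p = 0.0161) and missed the threshold with the 6 DSS libraries alone (0.0581). Il1b had 0.911, 1.3 and 1.4 FPKM with thymopentin and 7.21, 3.49 and 4.04 with saline (limma adjusted p = 0.0374). Il1b lost its call when any 1 DSS library other than saline 2 was left out, and without TNBS thymopentin 1 or 2 or TNBS saline 1 (adjusted p up to 0.113). Il6 and Ifng were too low to be tested, with at most 0.232 and 0.995 FPKM in any DSS library.

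Socs3, Lrg1 and Osmr fell too. Socs3, a feedback inhibitor that STAT3 switches on after signals of the interleukin-6 and interleukin-22 families, had 4.27, 7.59 and 7.09 FPKM with thymopentin, against 48.2, 28.2 and 23.9 with saline (log2 fold change -2.2 ± 0.36 SE, limma adjusted p = 0.00457). Its lowest saline library lay above its highest thymopentin library. Lrg1, a secreted acute-phase glycoprotein, had 0.99, 1.76 and 1.14 FPKM with thymopentin and 6.997, 9.79 and 17.7 with saline (log2 fold change -2.37 ± 0.44 SE, limma adjusted p = 0.00735). Osmr, the receptor for oncostatin M, went the same way, with 1.1 ± 0.106 FPKM with thymopentin and 2.32 ± 0.36 with saline (SD, n = 3 each; limma adjusted p = 0.00288). Of 12 tested genes of the interleukin-22, interleukin-6 and STAT3 axis 3 fell (Il22, Socs3 and Osmr), and 1 rose, the receptor chain Il22ra1, while Stat3 itself did not pass (log2 fold change -0.33). Il22ra1 lost its call without DSS thymopentin 1 or 2 or DSS saline 1 or 3 (adjusted p up to 0.0895), and under median-ratio rescaling. The promoter of Socs3 is shown because STAT factors bind the element TTCNNNGAA, which reads the same on both strands and is found in 8.3% of the 32851 RefSeq promoters of 300 bases. Of the 10 axis genes with a promoter in the table only Socs3 holds it; a match is a description of the letters and does not show binding. The window runs from 250 bases before to 50 after the start (RefSeq, GRCm38.p6, chr11:117969317-117969616, minus strand), 5′ to 3′ with the element in capitals.
Socs3 promoter: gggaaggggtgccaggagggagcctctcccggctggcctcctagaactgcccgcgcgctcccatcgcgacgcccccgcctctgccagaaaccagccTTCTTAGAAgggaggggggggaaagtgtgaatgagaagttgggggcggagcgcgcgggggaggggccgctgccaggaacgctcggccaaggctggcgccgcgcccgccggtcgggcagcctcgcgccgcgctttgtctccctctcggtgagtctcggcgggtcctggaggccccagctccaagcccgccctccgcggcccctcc

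A pair of inhibitors of inflammatory signalling moved in opposite directions. Zc3h12a, an RNase that degrades cytokine mRNAs, had 12.3 ± 1.37 FPKM with thymopentin and 23.8 ± 2.66 with saline (SD, n = 3 each; limma adjusted p = 0.0026). Tnip1, which restrains NF-kB through the A20 protein, had 32.9 ± 3.82 FPKM with thymopentin and 19.96 ± 1.83 with saline (SD, n = 3 each; adjusted p = 0.00925). They were the only 2 of 12 tested NF-kB feedback genes to pass, a share near the 17.3% of all tested genes that were called. Among 22 tested chemokines other than those of neutrophils 3 fell and 1 rose, a rise lost without any 1 DSS library other than thymopentin 2. Of the falls, that of Ccl2 (limma adjusted p = 0.0408) was lost without any 1 DSS library other than saline 2 (up to 0.12). Ccl7, which draws monocytes, had 3.42, 5.33 and 3.82 FPKM with thymopentin and 21.9, 8.56 and 10.8 with saline (adjusted p = 0.00856). Ccl22, a ligand of the chemokine receptor Ccr4, had 0.196, 0.672 and 0.801 FPKM with thymopentin and 1.78, 3.27 and 2.96 with saline (adjusted p = 0.0079). The interferon-induced chemokines Cxcl9 and Cxcl10 did not pass, with log2 fold changes of -0.28 and -0.45. Of 15 tested complement genes 3 fell and none rose. C4b, whose close paralog C4a can share its reads, had 11.7 ± 1.36 FPKM with thymopentin and 24.6 ± 0.619 with saline (SD, n = 3 each, limma adjusted p = 0.00993). The inhibitor Serping1 had 37 ± 3.25 FPKM with thymopentin and 59.3 ± 5.7 with saline (SD, n = 3 each, adjusted p = 0.00378). The third, C1s1 (adjusted p = 0.0444), lost its call without any 1 DSS library other than saline 1 (up to 0.147).

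Most neutrophil transcripts were too few to test in either group, and of those tested the calprotectin genes fell. S100a8 and S100a9, which together form calprotectin, the most abundant protein of neutrophil cytosol, both fell. S100a8 gave 0, 8 and 0 recovered reads in the thymopentin libraries, against 61, 43 and 113 in the saline libraries. S100a9 gave no read in any thymopentin library and 86, 45 and 72 in the saline libraries. No thymopentin library reached the lowest saline library, and both passed (limma adjusted p = 0.00745 and 0.00667). Both genes averaged at least 1 FPKM only through their saline libraries, so their falls rest in part on the filter. Lactoferrin (Ltf), of the secondary granules, gave 18, 14 and 8 reads with thymopentin and 156, 209 and 338 with saline, and the cathelicidin precursor Camp 7, 0 and 0 with thymopentin and 17, 22 and 19 with saline. Both averaged under 1 FPKM and were not tested. Of the trap genes, Padi4, which citrullinates histones, reached at most 0.0479 FPKM with thymopentin and 0.0157 with saline, Elane was listed at 0 in every DSS library but saline 2, and Mpo at 0 in all 6. Of the 15 neutrophil markers 6 were tested and 2 fell, and of the 16 granule and trap genes 8 were tested and 1 fell, which is Lcn2. Ly6g, the usual antibody target on neutrophils, had 217, 183 and 136 FPKM with thymopentin and 194, 258 and 308 with saline, overlapping groups on a level far above the calprotectin genes (limma adjusted p = 0.728). Its value is uncertain, since genes of the Ly6 family can share reads. Cd177, a surface protein of neutrophils that gut epithelium can also express, had 48.1, 39.998 and 41.3 FPKM with thymopentin and 24.6, 36 and 32.1 with saline and did not pass (adjusted p = 0.25). Cxcl1 and Cxcl5, chemokines that call neutrophils in, had log2 fold changes of -1.5 and -1.72 (adjusted p = 0.0343 and 0.0462), and both calls were lost when any 1 DSS library other than saline 2 was left out (up to 0.0933 and 0.133).

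Antimicrobial genes of the epithelium fell in part: of 18 tested, 7 fell and none rose, with a median of -0.94 relative to all genes. Without DSS saline 3 the count was 3, and without DSS thymopentin 2 or 3 it was 4. Log2 fold changes in the list ran from -2.43 to 2.29, with 14 below 0 and 4 above. The summed FPKM of the list overlapped, at 7867 to 10989 with thymopentin and 6838 to 10480 with saline. Lcn2, which starves bacteria of iron by binding siderophores, had 1.14, 0.921 and 1.13 FPKM with thymopentin and 3.16, 6.31 and 5.21 with saline (log2 fold change -1.47 ± 0.28 SE, limma adjusted p = 0.00801). Saa3, a serum amyloid A made by epithelium and macrophages, had 0.66, 0.407 and 0.552 FPKM with thymopentin and 2.47, 4.77 and 6.05 with saline (log2 fold change -1.76 ± 0.31 SE, limma adjusted p = 0.00622). For both genes every thymopentin library lay below every saline library. Duoxa2, the maturation factor of the hydrogen peroxide producing oxidase Duox2, had 38.2 ± 5.76 FPKM with thymopentin and 73.2 ± 15.7 with saline (SD, n = 3 each; adjusted p = 0.0143, or 0.0575 without DSS saline 3). Pla2g2a, a bactericidal secreted phospholipase, had 5.34, 3.51 and 6.29 FPKM with thymopentin and 25.2, 25.4 and 23.8 with saline (adjusted p = 0.0261), a call lost when any 1 DSS library was left out (up to 0.0882). Nox1, the NADPH oxidase of colonocytes, rose instead: it had 7.42, 3.74 and 5.62 FPKM with thymopentin, against 1.25, 1.05 and 0.687 with saline (log2 fold change 1.69 ± 0.20 SE, limma adjusted p = 0.00121).

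Few interferon response genes passed. Of 25 tested type I interferon response genes 3 rose, a share near the 12.6% of all tested genes that rose, and none fell. The list median was 0.25 with nothing subtracted, against 0.11 for all genes. Without DSS saline 2 it was 0.096, below the 0.138 of all genes, and without DSS saline 1 it was 0.48 with 9 rises. Of 18 interferon gamma response genes 3 fell and none rose, with a median of -0.55 relative to all genes, and 1 fell without DSS thymopentin 1 or 2 or DSS saline 1. None of 10 MHC class II genes (median -0.71) or 14 MHC class I and immunoproteasome genes (median -0.34), both relative to all genes, passed. Oas3, an antiviral sensor of double-stranded RNA, had 27, 24.8 and 20.1 FPKM with thymopentin and 16.7, 8.49 and 11.8 with saline (log2 fold change 0.94 ± 0.20 SE, limma adjusted p = 0.0133). Ifi27l2a, a small interferon-induced membrane protein, had 506, 498 and 374 FPKM with thymopentin and 193, 72.6 and 147 with saline (log2 fold change 1.83 ± 0.30 SE, limma adjusted p = 0.00478), and the lowest thymopentin library was above the highest saline library for both. Gbp4, a guanylate-binding protein induced by interferon gamma, went the other way, with 4.24, 6.07 and 6.16 FPKM with thymopentin and 10.3, 10.3 and 10.4 with saline (log2 fold change -0.82 ± 0.16 SE, limma adjusted p = 0.00967). Isg15 and Ifit1 did not pass, with log2 fold changes of 0.17 and 0.29. In TNBS colitis the type I list had a median of -0.94 with nothing subtracted, against 0.25 in DSS, and for 14 of its 25 genes the responses differed by the test of the difference. For Oas3 that difference was 2.63 (adjusted p = 0.00382): in TNBS it had 1.04, 1.07 and 1.07 FPKM with thymopentin and 4.68, 5.74 and 6.56 with saline. The promoter of Oas3 is shown because 10 of the 18 listed genes with a promoter in the table hold the interferon-stimulated response element (GAAA, any 2 bases, GAAA) on either strand, against 3.44% of all 32851 promoters, and Oas3 had the larger fold change of the 2 of these that rose (the other is Ddx58, whose call was lost without any 1 DSS library other than saline 1 and after either rescaling, with adjusted p up to 0.133). The sequence (RefSeq, GRCm38.p6, chr5:120777610-120777909, minus strand) is given 5′ to 3′ with the element in capitals.
Oas3 promoter: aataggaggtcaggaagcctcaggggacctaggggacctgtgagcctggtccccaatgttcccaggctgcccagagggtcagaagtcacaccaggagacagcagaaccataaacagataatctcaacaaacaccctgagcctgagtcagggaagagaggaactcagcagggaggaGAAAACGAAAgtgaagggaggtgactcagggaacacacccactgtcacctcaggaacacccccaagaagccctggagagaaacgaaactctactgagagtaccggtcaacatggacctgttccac

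Genes of dividing cells rose with thymopentin. Of 25 tested cell cycle genes 17 rose and none fell, and the median was 0.63 relative to all genes; 16 rose after quantile normalization, 15 after median-ratio rescaling and 12 without DSS saline 3. Mki67, which coats mitotic chromosomes and is the common marker of proliferation, had 16.7, 18.9 and 17.7 FPKM with thymopentin and 7.33, 7.71 and 5.64 with saline (log2 fold change 1.26 ± 0.16 SE, limma adjusted p = 0.00163). Ube2c, the ubiquitin-conjugating enzyme of the anaphase-promoting complex, had 13.1, 12.1 and 13.7 FPKM with thymopentin and 5.31, 4.84 and 5.34 with saline (log2 fold change 1.18 ± 0.14 SE, limma adjusted p = 0.00133). Cdca3, a trigger of mitotic entry, had 11, 10.8 and 12.3 FPKM with thymopentin and 5.06, 3.99 and 4.3 with saline (log2 fold change 1.18 ± 0.10 SE, limma adjusted p = 0.000274). Plk1, a mitotic kinase, had 24.4, 25.2 and 27.7 FPKM with thymopentin and 15.7, 15.2 and 15.2 with saline (log2 fold change 0.71 ± 0.09 SE, limma adjusted p = 0.00183). The groups did not overlap for any of these.

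The list did not move as 1 block. A split into genes of DNA replication (Mcm2 to Mcm7, Pcna, Rrm2 and Tyms) and the remaining 16, which serve mainly mitosis, was made after the values had been seen and is given without a test. All 16 remaining genes rose, with log2 fold changes from 0.67 to 1.26 and a median of 0.94. Of the 9 replication genes only Tyms rose, with a call that was lost under most alternatives (adjusted p up to 0.162), and their log2 fold changes ran from 0.02 to 0.44 with a median of 0.16. Pcna, the sliding clamp of DNA polymerase, had 22.1, 19.3 and 23.9 FPKM with thymopentin and 18.2, 24.2 and 17.5 with saline. Mcm2, of the replicative helicase, had 1.77, 1.63 and 2.12 FPKM with thymopentin and 1.49, 2.23 and 1.08 with saline; both overlapped between groups (limma adjusted p = 0.494 and 0.526). Mean FPKM with saline ran from 0.511 to 15.3 in the 16 remaining genes and from 1.60 to 20.0 in the replication genes, ranges that overlap. In TNBS colitis the cell cycle list had a median log2 fold change of -0.07, against 0.74 in DSS, and the responses of 10 of the 25 genes differed. For Ube2c the difference was 1.49 (adjusted p = 0.0073), for Mki67 1.28 (0.0163), for Cdca3 1.32 (0.00425) and for Plk1 0.80 (0.0139).

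**Figure D2:**
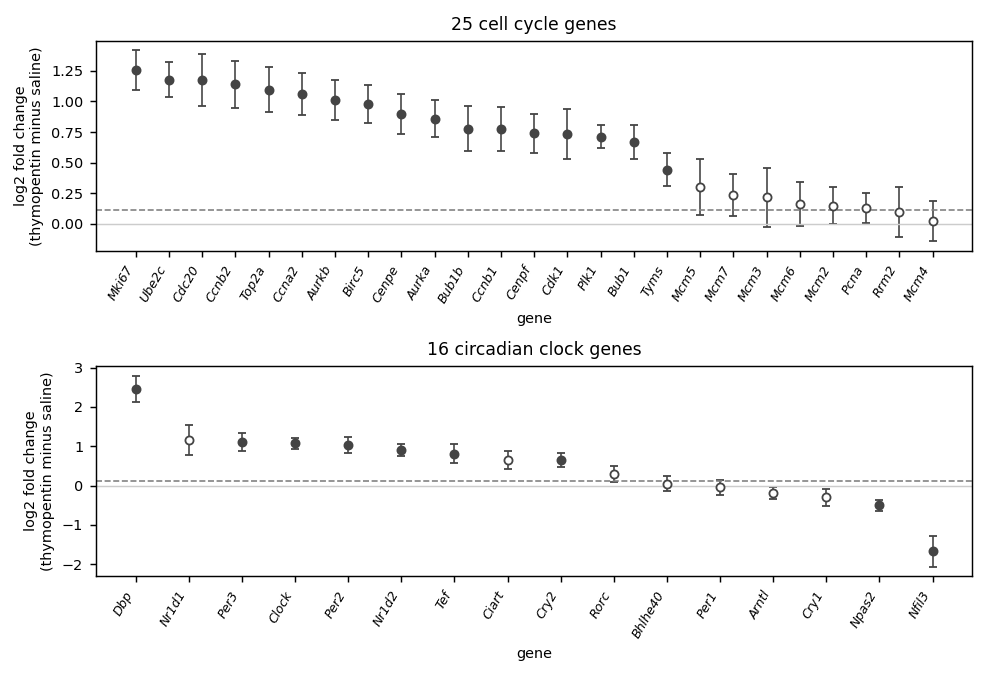
Log2 fold change of FPKM + 1, thymopentin minus saline, in DSS colitis (y axis, bars are SE) for the 25 tested cell cycle genes (top) and 16 circadian clock genes (bottom), sorted by value; filled points passed the adjusted p threshold and the dashed line marks the median of all tested genes, 0.11. The replication genes, Mcm2 to Mcm7, Pcna, Rrm2 and Tyms, stand on the right of the top panel and the remaining cell cycle genes on its left.

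Wnt target genes rose in part, and BMP antagonists and growth factor ligands fell. Of 9 tested stem cell and Wnt target genes 4 rose and none fell, with a median of 0.42 relative to all genes. Only these 9 of 16 listed genes averaged at least 1 FPKM over the 6 DSS libraries. Axin2 and Ephb3 averaged 0.792 and 0.835 FPKM with saline and passed that filter only through thymopentin. Part of the count of rises, and of the median, can therefore come from the filter. Axin2, a feedback target of Wnt signalling, had 3.32, 2.33 and 3.29 FPKM with thymopentin and 0.595, 1.13 and 0.646 with saline (log2 fold change 1.15 ± 0.17 SE, limma adjusted p = 0.00248). Ephb3 and Sox9, receptor and transcription factor of the lower crypt, differed between the groups. Ephb3 had 1.95 ± 0.195 FPKM with thymopentin and 0.835 ± 0.201 with saline, and Sox9 had 11.6 ± 1.3 FPKM with thymopentin and 6.5 ± 0.875 with saline (SD, n = 3 each; limma adjusted p = 0.00362 and 0.00574). Lgr5, the stem cell receptor, averaged under 1 FPKM and was not tested; it gave 38, 34 and 76 recovered reads with thymopentin and 4, 25 and 9 with saline. Among 18 genes of the BMP pathway, which opposes crypt growth, the secreted antagonists Grem1 and Chrd fell and the targets Id3, Smad6 and Smad7 rose. Grem1, made by stromal cells under the crypts, had 16.2, 6.92 and 9.33 FPKM with thymopentin and 32, 25.9 and 25.3 with saline (log2 fold change -1.35 ± 0.27 SE, limma adjusted p = 0.011). Smad6, an inhibitory Smad, had 3.92, 4.62 and 4.12 FPKM with thymopentin and 2.18, 1.84 and 1.71 with saline (log2 fold change 0.84 ± 0.14 SE, limma adjusted p = 0.00442). Chrd lost its call without DSS saline 3 (adjusted p = 0.0504) and Smad7 without DSS thymopentin 2 (0.0503), and Id3 without either (0.0579 at most). None of the 9 tested Bmp and Bmpr genes passed. Ereg and Areg, ligands of the epidermal growth factor receptor that injured epithelium makes, fell: Ereg had 1.74, 0.621 and 1.11 FPKM with thymopentin and 9.24, 3.84 and 6.53 with saline (log2 fold change -1.77 ± 0.26 SE, limma adjusted p = 0.00288). Areg had 17.5, 12.6 and 10.5 FPKM with thymopentin and 45.9, 26 and 39.7 with saline (log2 fold change -1.39 ± 0.26, adjusted p = 0.00845). They were the 2 of 14 tested regeneration genes to pass.

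Genes of colonocyte transport rose in part. Of 16 tested ion and nutrient transporters 7 rose and 1 fell, with 5 rises after either rescaling and 5 without DSS saline 3; the fall was lost without any 1 DSS library other than saline 1. Cftr, the chloride channel of crypt secretion, had 7.45, 7.66 and 8.04 FPKM with thymopentin and 2.16, 2.97 and 2.1 with saline (log2 fold change 1.36 ± 0.20 SE, limma adjusted p = 0.00257). The basolateral potassium channels that drive that secretion rose with it, Kcnq1 at 7.11, 6.81 and 7.97 FPKM with thymopentin and 2.43, 3.27 and 2.05 with saline and Kcnn4 at 5.47, 6.01 and 6.24 FPKM with thymopentin and 2.39, 2.08 and 1.69 with saline (log2 fold change 1.22 ± 0.16 SE, limma adjusted p = 0.00182 for Kcnq1; 1.18 ± 0.12, adjusted p = 0.000724 for Kcnn4). Slc5a8 and Slc16a1, which carry butyrate into colonocytes, differed between the groups. Slc5a8 had 51 ± 7.71 FPKM with thymopentin and 26.3 ± 1.69 with saline, and Slc16a1 had 70.5 ± 7.71 FPKM with thymopentin and 40.7 ± 6.75 with saline (SD, n = 3 each; limma adjusted p = 0.00439 and 0.00812). Slc17a4, a phosphate transporter of the apical membrane, had 8.09, 7.24 and 6.72 FPKM with thymopentin and 3.53, 5.16 and 4.53 with saline (log2 fold change 0.64 ± 0.16 SE, limma adjusted p = 0.0229). Its call was lost without DSS thymopentin 1 or 2 or DSS saline 1 or 3 and under median-ratio rescaling (up to 0.0707). Occludin (Ocln), of the tight junction, had 23.9, 19.5 and 16 FPKM with thymopentin and 7.29, 10.8 and 11.3 with saline (log2 fold change 0.95 ± 0.21 SE, limma adjusted p = 0.0146). Of 16 tight junction genes 4 rose and none fell, and 2 rose without DSS saline 3. Of 18 goblet cell and mucus genes 2 rose, a share near the 12.6% of all tested genes that rose, and none fell. Neither call held without DSS saline 3. Yet 12 of the 18 log2 fold changes lay below 0, the median was -0.31 relative to all genes, and the summed FPKM did not overlap, at 7783 to 9472 with thymopentin and 10726 to 11482 with saline. Muc2, the mucin that builds the mucus layer, had 350.4, 264 and 257 FPKM with thymopentin and 366, 368 and 389 with saline and did not pass (adjusted p = 0.409). Cdx2, a homeobox regulator of intestine, did not pass at 26.9, 20.9 and 21.1 FPKM with thymopentin and 8.08, 15 and 10.1 with saline (adjusted p = 0.0619). Of 20 markers of absorptive colonocytes 2 rose and 1 fell, shares near the 12.6% and 4.68% of all tested genes. No rise was left without DSS thymopentin 2 or 3 or DSS saline 1 or 3. The summed FPKM of these markers overlapped, at 2903 to 3711 with thymopentin and 2786 to 3907 with saline.

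**Figure D3:**
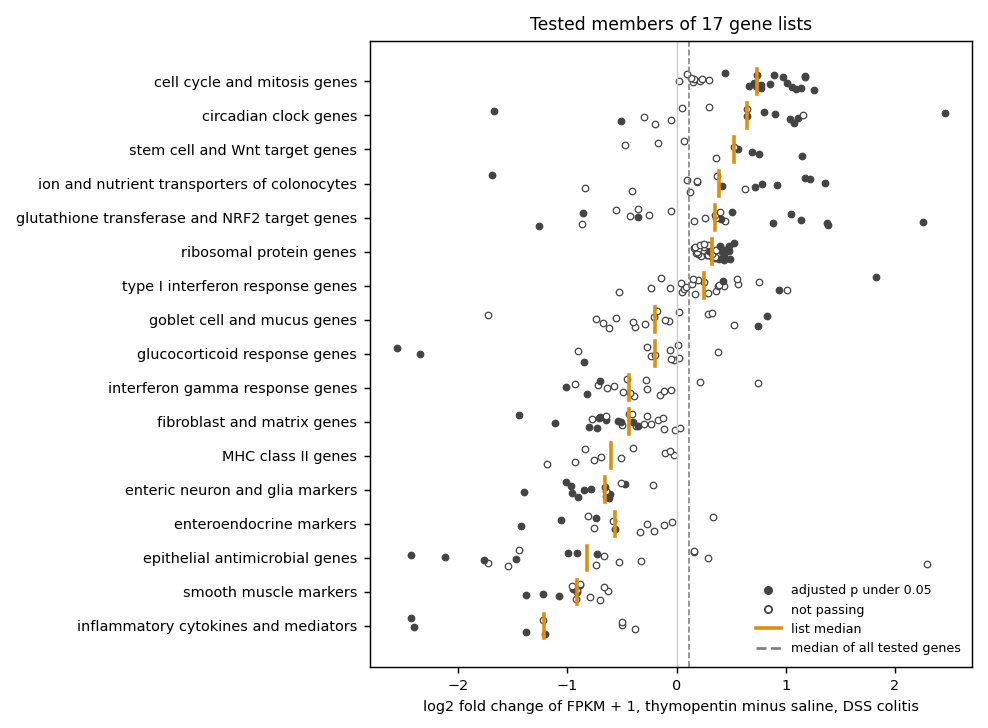
Log2 fold change of FPKM + 1, thymopentin minus saline, in DSS colitis (x axis) of each tested member of 17 gene lists (y axis); filled points passed the adjusted p threshold, orange bars are list medians and the dashed line is the median of all tested genes, 0.11. Cell cycle genes lie furthest to the right by median, at 0.74, and inflammatory mediators furthest to the left, at -1.21.

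Genes of the deeper colon wall were lower with thymopentin. Of 15 tested markers of enteric neurons and glia 12 fell and none rose (median -0.77 relative to all genes), of 25 fibroblast and matrix genes 11 fell and none rose (-0.55), and of 14 smooth muscle markers 5 fell and none rose (-1.02), with no overlap between groups in any of the 14. These counts rest on single libraries: without DSS saline 3 they were 2, 4 and 0, and without DSS thymopentin 2 they were 3, 3 and 0. Without DSS thymopentin 3 or DSS saline 1 the matrix count was 5 or 6 and no smooth muscle marker passed. The smooth muscle count was also down to 3 without DSS thymopentin 1 and 1 without DSS saline 2. Snap25, of the synaptic vesicle fusion machinery, had 2.79, 1.57 and 2.65 FPKM with thymopentin and 4.44, 4.86 and 5.51 with saline (log2 fold change -0.85 ± 0.16 SE, limma adjusted p = 0.00859). Prph and Tubb3, cytoskeletal proteins of neurons, differed between the groups. Prph had 7.42 ± 1.9 FPKM with thymopentin and 15.2 ± 2.59 with saline, and Tubb3 had 4.9 ± 1.32 FPKM with thymopentin and 10.3 ± 1.41 with saline (SD, n = 3 each; limma adjusted p = 0.0127 and 0.0123, or 0.0534 and 0.052 without DSS saline 3). Mgp, a matrix protein that holds back calcification, had 34.5, 28.1 and 40.1 FPKM with thymopentin and 108, 79.9 and 95.2 with saline (log2 fold change -1.44 ± 0.15 SE, limma adjusted p = 0.000724). Fibronectin (Fn1) had 15.2, 10.7 and 13.3 FPKM with thymopentin and 32.1, 25.9 and 30.1 with saline (log2 fold change -1.12 ± 0.15 SE, limma adjusted p = 0.00198). Decorin (Dcn), a small proteoglycan, had 34.9, 29.97 and 32.4 FPKM with thymopentin and 42.2, 49.5 and 48.2 with saline (log2 fold change -0.51 ± 0.10 SE, limma adjusted p = 0.0102). The main fibrillar collagens did not pass, with Col1a1 at 16.2, 15.2 and 18.6 FPKM with thymopentin and 17.7, 13.7 and 19.3 with saline. Col3a1 had 50.9, 45.3 and 48.8 FPKM with thymopentin and 51.3, 38.5 and 52.9 with saline (adjusted p = 0.967 for Col1a1 and 0.877 for Col3a1). Cnn1, calponin of smooth muscle, had 180.1, 106 and 173 FPKM with thymopentin and 436, 352 and 389 with saline, and its call (adjusted p = 0.046) was lost when any 1 DSS library was left out, and also without any TNBS thymopentin library or TNBS saline 1 (up to 0.147).

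Summed over the list, smooth muscle markers reached 1717 to 2568 FPKM with thymopentin and 3827 to 4462 with saline, and neuron and glia markers 35.1 to 57.5 FPKM with thymopentin and 92.6 to 120.4 with saline. Fat cell markers were lower too: 7 of 10 were tested, their sum was 7.94 to 25.5 FPKM with thymopentin and 29.7 to 153 with saline, 1 of the 7 passed (none without any 1 DSS library), and Adipoq and Cfd were listed at 0 in thymopentin 2. The sources used here do not say how much muscle, nerve or fat each piece of colon held, and the part of such a difference in these results was not tested. In TNBS colitis the 3 wall lists had median log2 fold changes of 0.41 (neurons and glia), 0.56 (matrix) and 0.45 (smooth muscle). In DSS they were -0.66, -0.44 and -0.91 with nothing subtracted. The responses differed for 9 of 15, 15 of 25 and 1 of 14 genes. For Mgp the difference was -1.98 (limma adjusted p = 0.00382), with 12.2, 13.1 and 13.1 FPKM in TNBS thymopentin libraries and 8.16, 7.63 and 9.96 in TNBS saline libraries. For Dcn it was -1.34 (0.00382) and for Fn1 -1.72 (0.00625).

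**Figure D4:**
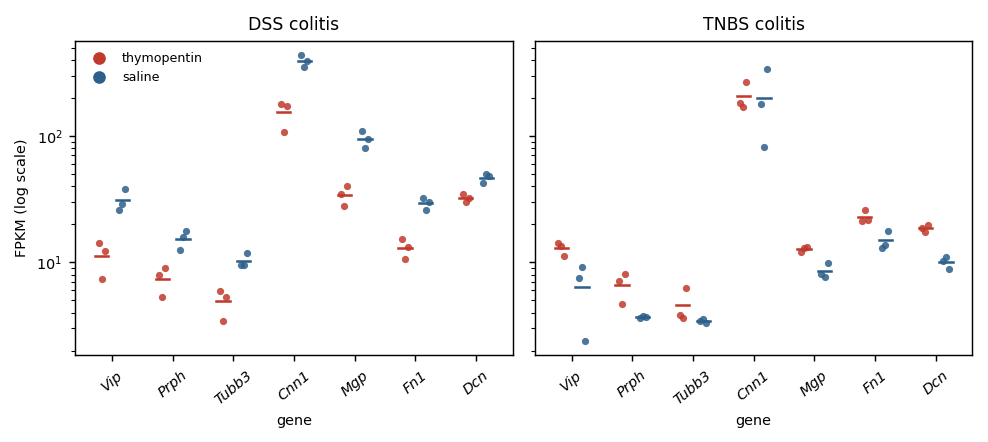
FPKM on a log scale (y axis) of 7 genes of enteric neurons, smooth muscle and matrix (x axis) in DSS colitis (left panel) and TNBS colitis (right panel), thymopentin in red on the left and saline in blue on the right, with 3 libraries a group and a bar at the mean. All 7 genes are lower in every DSS thymopentin library than in any DSS saline library, and for Mgp, Fn1 and Dcn the order is turned round in TNBS.

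Hormone and other immune transcripts were lower in part. Of 13 tested enteroendocrine markers 4 fell, but 1 without DSS thymopentin 2, DSS saline 2 or DSS saline 3. Sst, the hormone somatostatin, had 7.32, 7.52 and 12.3 FPKM with thymopentin and 21, 24.9 and 31.1 with saline (log2 fold change -1.43 ± 0.20 SE, limma adjusted p = 0.00215). Mcpt1, a protease of mucosal mast cells, had 8.66, 8.51 and 7.73 FPKM with thymopentin and 14.6, 30.3 and 31.8 with saline (log2 fold change -1.44 ± 0.28 SE, limma adjusted p = 0.0096). Of 15 listed mast cell and eosinophil markers 5 were tested and 2 fell, Mcpt1 and Mcpt2. The log2 fold changes of 2 of the 5 lay above 0, up to 0.86. Mcpt2 overlapped between groups, and its call (limma adjusted p = 0.0416) was lost in 13 of 23 alternatives. Of 17 markers of macrophages and dendritic cells 3 fell and 1 rose; none passed without DSS saline 3, and 1 fell and none rose without DSS thymopentin 2 or 3. Of 16 T cell and cytotoxic markers 2 fell, and 1 fell when any 1 DSS library was left out. None of 13 B cell markers passed, and their summed FPKM ranged from 23.7 to 134.5 with thymopentin and from 25.5 to 149.6 with saline. Of 10 tested plasma cell genes 3 rose (Sdc1, Derl3 and Xbp1) and none fell, with a median of 0.21 relative to all genes. All 3 calls were lost without DSS saline 1. Tmpo, which encodes thymopoietin and its nuclear lamina isoforms, had 7.07, 6.49 and 6.82 FPKM with thymopentin and 5.21, 5.46 and 4.77 with saline (log2 fold change 0.34 ± 0.08 SE, limma adjusted p = 0.0158); its call was lost without DSS saline 3 and under either rescaling (adjusted p up to 0.0771).

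The circadian clock genes also differed: 7 of 16 rose and 2 fell. The clock is a loop in which Clock or Npas2, paired with Arntl, turns on the period, cryptochrome and Rev-erb genes and Dbp. Products of these genes feed back on the loop, so that each gene peaks at its own hour. Dbp, an output activator, had 18.4, 29.7 and 27.6 FPKM with thymopentin and 1.82, 5.53 and 4.53 with saline (log2 fold change 2.46 ± 0.33 SE, limma adjusted p = 0.002). Per2 and Per3, of the repressor arm, both rose. Per2 had 13.1, 9.89 and 12.1 FPKM with thymopentin and 3.29, 6.91 and 5.89 with saline (adjusted p = 0.00961). Per3 had 4.1, 7.23 and 6.55 FPKM with thymopentin and 1.93, 2.83 and 1.79 with saline (adjusted p = 0.0124). Nr1d2, a Rev-erb repressor, had 17.4, 19.5 and 18.6 FPKM with thymopentin and 8.03, 11 and 9.42 with saline (adjusted p = 0.00376). Clock itself had 5.2, 5.31 and 4.88 FPKM with thymopentin and 2.5, 1.32 and 2.03 with saline (log2 fold change 1.08 ± 0.14 SE, limma adjusted p = 0.00163). Nfil3, which competes with Dbp for the same DNA element, fell, with 1.05, 0.948 and 0.939 FPKM with thymopentin and 9.31, 3.15 and 4.89 with saline (log2 fold change -1.67 ± 0.39 SE, limma adjusted p = 0.0178). Arntl did not pass (adjusted p = 0.388). Per3 lost its call without DSS thymopentin 2 or DSS saline 3 (adjusted p up to 0.0514) and Nfil3 without DSS thymopentin 2 or 3 or DSS saline 1 or 3 (adjusted p up to 0.0565). Of the whole list, 4 rises and no fall were left without DSS thymopentin 2 or DSS saline 3, and 5 rises and no fall without DSS thymopentin 3 or DSS saline 1. The part of the hour of collection, which the sources do not state, in these differences was not tested. In TNBS colitis the list median was 0.28, and of the genes named here only Clock responded differently between the models (0.89, adjusted p = 0.0299). With the replicate number as a block that call was lost (0.0608), and the difference for Dbp (1.60) passed (0.0307, against 0.0766 without the block).

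The promoter of Per3 is shown because the factors encoded by Dbp and Nfil3 bind the D-box, searched as TTATGNAA on both strands, and Per3 holds it in a pair of copies. It occurs in 3.38% of the 32851 RefSeq promoters and in 2 of the 13 clock genes with a promoter in the table (Per1 and Per3). The E-box CACGTG, bound by Clock, occurs in 7.15% of promoters and in 4 of the 13 (Ciart, Cry1, Per1 and Tef). The Per3 window (RefSeq, GRCm38.p6, chr4:151044616-151044915, minus strand) is given 5′ to 3′ with both D-boxes in capitals.
Per3 promoter: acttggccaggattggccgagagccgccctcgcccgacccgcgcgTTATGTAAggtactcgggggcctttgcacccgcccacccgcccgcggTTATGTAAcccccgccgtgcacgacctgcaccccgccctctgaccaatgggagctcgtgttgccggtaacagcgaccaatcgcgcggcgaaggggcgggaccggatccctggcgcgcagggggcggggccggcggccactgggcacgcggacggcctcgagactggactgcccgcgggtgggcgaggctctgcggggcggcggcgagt

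Some of the most separated genes are known from steroid signalling. Crispld2, a secreted lipopolysaccharide-binding protein that glucocorticoids induce in human airway muscle, had 0.435, 0.376 and 0.366 FPKM with thymopentin and 6.31, 7.1 and 8.38 with saline (log2 fold change -2.56 ± 0.13 SE, limma adjusted p = 2.32e-05), the smallest p of all genes. H6pd, which feeds NADPH to the enzyme that regenerates active glucocorticoid in the endoplasmic reticulum, had 0.254, 0.159 and 0.102 FPKM with thymopentin, against 3.39, 6.06 and 5.93 with saline (log2 fold change -2.36 ± 0.18 SE, limma adjusted p = 0.00011). In recovered reads Crispld2 gave 81, 59 and 71 with thymopentin and 1256, 1309 and 1539 with saline, and H6pd 51, 27 and 22 with thymopentin and 741, 1228 and 1197 with saline. Ncoa1, the steroid receptor coactivator SRC-1, rose, with 5.51, 4.59 and 5.15 FPKM with thymopentin and 1.28, 1.5 and 1.47 with saline (log2 fold change 1.33 ± 0.09 SE, limma adjusted p = 6.64e-05). Of 13 tested genes in the glucocorticoid list 3 fell, and Crispld2 and H6pd are 2 of them. The list was drawn up with earlier results of these data known, so its count is not independent of these genes. The other listed genes moved less. The third fall was Fkbp5, a co-chaperone of the receptor (-0.85 ± 0.22, limma adjusted p = 0.0259). Its call was lost without DSS thymopentin 2 or 3 or DSS saline 2 or 3 (adjusted p up to 0.0921). Tsc22d3 and Sgk1, common targets of the receptor, did not pass, with log2 fold changes of -0.03 and 0.02, nor did the receptor gene Nr3c1 (0.38). Crispld2, H6pd and Ncoa1 kept their calls in all 22 alternatives that tested them. In TNBS colitis Crispld2 was at 2.34, 3.68 and 3.18 FPKM with thymopentin and 1.77, 1.59 and 2.01 with saline, and H6pd at 3.18, 4.3 and 3.74 with thymopentin and 3.68, 4.32 and 4.67 with saline. The differences between the models were -3.10 (adjusted p = 0.000115) and -2.21 (0.0043).

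Part of the detoxifying and lipid enzymes rose. Of 23 tested glutathione transferase and NRF2 target genes 8 rose and 3 fell, with a median of 0.24 relative to all genes, and 5 rose and 4 fell after either rescaling. Without DSS thymopentin 2 it was 5 and 1, and without DSS saline 3 it was 6 and 0. Gstm3 and Gstm1, transferases that join glutathione to reactive compounds, both rose. Gstm3 had 27.8, 24.9 and 28.6 FPKM with thymopentin and 7.7, 3.65 and 3.99 with saline (log2 fold change 2.26 ± 0.26 SE, limma adjusted p = 0.00108). Gstm1 had 124, 139 and 147 FPKM with thymopentin and 62.2, 49.3 and 45.8 with saline (log2 fold change 1.38 ± 0.12 SE, limma adjusted p = 0.00031). The Gstm genes are near-identical neighbours that can share reads, so the values of single members are uncertain. Gsta3 rose (1.39 ± 0.16, adjusted p = 0.00108), while Hmox1, the heme oxygenase that NRF2 also controls, fell, with 2.98, 2.68 and 2.72 FPKM with thymopentin and 4.41, 7.41 and 6.08 with saline (adjusted p = 0.0134, or 0.0502 without DSS saline 3). Cyp2s1, a P450 of epithelia, had 29.3, 38.8 and 29.5 FPKM with thymopentin and 11.2, 14.3 and 12.1 with saline (log2 fold change 1.3 ± 0.17 SE, limma adjusted p = 0.0018). Ugt2b35, a glucuronosyltransferase, had 6.42, 5.39 and 4.71 FPKM with thymopentin and 0.96, 1.25 and 0.939 with saline (log2 fold change 1.66 ± 0.18 SE, limma adjusted p = 0.000846). Cyp2c55 had 55.5, 39.2 and 36.7 FPKM with thymopentin and 6.59, 20.1 and 4.66 with saline, with a call (adjusted p = 0.0313) that was lost when any 1 DSS library other than saline 2 was left out (adjusted p up to 0.109). Acer1, an alkaline ceramidase that splits ceramide into sphingosine, had 16.3, 16 and 16.3 FPKM with thymopentin and 3.45, 4.64 and 2.73 with saline (log2 fold change 1.92 ± 0.13 SE, limma adjusted p = 6.64e-05). The 3 thymopentin values of Acer1 were nearly equal. Of 20 tested sphingolipid enzymes 6 rose and none fell, among them Ugcg, which makes glucosylceramide (0.61 ± 0.08, adjusted p = 0.00215), and Sgms2, which makes sphingomyelin (0.93 ± 0.15, 0.00415); 4 rose and 1 fell after either rescaling. Acsl3, which activates fatty acids, had 35.8 ± 5.4 FPKM with thymopentin and 15.4 ± 0.914 with saline, and hexokinase Hk2 had 25.8 ± 4.72 FPKM with thymopentin and 57.3 ± 5.13 with saline (SD, n = 3 each; adjusted p = 0.000759 and 0.00133).

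Large changes were also found in genes outside these groups. Nxpe2, a member of a family with neurexophilin and esterase-like domains that is abundant in colon, had 61, 42.1 and 53.6 FPKM with thymopentin and 5.42, 6.48 and 4.6 with saline (log2 fold change 3.03 ± 0.32 SE, limma adjusted p = 0.000915). Grb7, an adaptor of receptor tyrosine kinases, had 20.1, 27 and 22.5 FPKM with thymopentin and 5.45, 7.27 and 5.42 with saline (log2 fold change 1.78 ± 0.15 SE, limma adjusted p = 0.000257). Pdzd7, a scaffold protein of hair cells, had 5.52, 9.67 and 10.5 FPKM with thymopentin and 1.36, 1.25 and 1.01 with saline (log2 fold change 2.08 ± 0.24 SE, limma adjusted p = 0.00117). Tmem184b, a transmembrane protein, had 8.94, 9.03 and 8.83 FPKM with thymopentin and 1.6, 0.962 and 1.37 with saline (log2 fold change 2.11 ± 0.39 SE, limma adjusted p = 0.00737). Ttr, the thyroxine carrier transthyretin, had 33.4, 39.9 and 40.6 FPKM with thymopentin and 9.76, 8.87 and 9.39 with saline (log2 fold change 1.91 ± 0.41 SE, limma adjusted p = 0.0145). Ces1e, a carboxylesterase with close paralogs, had 2.99, 4.38 and 3.62 FPKM with thymopentin and 0.611, 0.27 and 0.0259 with saline; its call (adjusted p = 0.0146) was lost without DSS thymopentin 2 or DSS saline 3 (adjusted p up to 0.0578). Hoxa6 and Hoxb9, which carry positional identity, were among the 4 of 19 tested Hox genes that rose; 2 rose without DSS thymopentin 2 or 3 or DSS saline 1 or 3. Hoxa6 had 9.02 ± 0.185 FPKM with thymopentin and 3.34 ± 0.82 with saline, and Hoxb9 had 25.3 ± 1.25 FPKM with thymopentin and 15.9 ± 0.649 with saline (SD, n = 3 each; adjusted p = 0.00288 and 0.00449).

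Among the falls, Trim15, a RING-domain protein of focal adhesions, had 6.1, 5.21 and 5.94 FPKM with thymopentin and 58.1, 30.9 and 42.6 with saline (log2 fold change -2.69 ± 0.34 SE, limma adjusted p = 0.00149). Kpna1, an importin alpha that carries cargo into the nucleus, had 0.64, 0.674 and 0.375 FPKM with thymopentin and 3.77, 4.66 and 3.76 with saline (log2 fold change -1.7 ± 0.12 SE, limma adjusted p = 6.64e-05). It was the only one of 22 tested importins and exportins to fall, and 3 rose, shares near the 4.68% and 12.6% of all tested genes. Only 1 rose without DSS thymopentin 2 or 3 or DSS saline 3. Kpna1 was also lower with thymopentin in TNBS colitis, at 1.73, 1.69 and 2.15 FPKM with thymopentin and 6.08, 5.8 and 6.78 with saline. No difference between the models was called for it (limma adjusted p = 0.227). Mfsd2a, a transporter of lysophosphatidylcholine, had 0.779, 0.707 and 0.421 FPKM with thymopentin and 12.1, 5.94 and 7.69 with saline (log2 fold change -2.51 ± 0.28 SE, limma adjusted p = 0.00108). Gem, a small GTPase that restrains calcium channels, had 3.55, 2.07 and 4.25 FPKM with thymopentin and 34.7, 10.2 and 17 with saline (log2 fold change -2.2 ± 0.37 SE, limma adjusted p = 0.00478). Fabp6, the bile acid carrier of ileal enterocytes, had 11.4, 22.1 and 15.3 FPKM with thymopentin and 120.4, 56.5 and 88.8 with saline (log2 fold change -2.36 ± 0.46 SE, limma adjusted p = 0.00959). Mmp10, a matrix protease of wounded epithelium, had 0.569, 0.276 and 0.431 FPKM with thymopentin and 2.1, 2.07 and 2.59 with saline (log2 fold change -1.19 ± 0.15 SE, limma adjusted p = 0.00146). Clca4b, of a family of calcium-activated chloride channel regulators with close paralogs, had 17.8, 30.4 and 13.8 FPKM with thymopentin and 110.2, 179 and 315 with saline; its call (adjusted p = 0.0182) was lost without DSS thymopentin 3 or DSS saline 3 (adjusted p up to 0.0709). Apol10a, an apolipoprotein L relative, had 21.3, 16.1 and 22.3 FPKM with thymopentin and 71.5, 112 and 92 with saline, and its call (0.0405) was lost when any 1 DSS library, TNBS thymopentin 2 or TNBS saline 1 was left out and after quantile normalization (adjusted p up to 0.116).

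Short transcripts among the 15 largest rises and falls are uncertain, since FPKM of a short gene depends on how reads of longer overlapping transcripts are counted. They are Snord14e, Mir142hg, Mir7678 and mt-Tt. Snord14e, a small nucleolar RNA inside a host gene, had 16.1, 7.89 and 14.2 FPKM with thymopentin and 0.0462, 0.0412 and 0.0333 with saline. Mir142hg, a microRNA host transcript, had 7.74, 20.3 and 17.7 FPKM with thymopentin and 2.05, 0 and 1.46 with saline. Mir7678 had 1.43, 1.39 and 0.101 FPKM with thymopentin and 13.4, 3.62 and 7.07 with saline. The mitochondrial transfer RNA mt-Tt had 3.37, 6.94 and 5.32 FPKM with thymopentin and 31.5, 20.0 and 22.4 with saline. The call of Mir7678 (adjusted p = 0.00765) held in the 22 alternatives that tested it and that of mt-Tt (0.00224) in all 23. That of Snord14e (0.0295) was lost when any 1 DSS library was left out (adjusted p up to 0.0812) and that of Mir142hg (0.0268) without DSS thymopentin 2 or 3 or DSS saline 2 or 3 (adjusted p up to 0.089). Ribosomal protein genes rose by small amounts: 14 of 30 passed, all upward, with log2 fold changes over the list from 0.16 to 0.53. The count was 10 after quantile normalization, 4 after median-ratio rescaling and 1 without DSS saline 3 or without DSS thymopentin 2; it was 2 without DSS thymopentin 3, 3 without DSS saline 1 and 8 without DSS thymopentin 1. Of the 13 protein-coding genes of the mitochondrial genome 3 fell and none rose, with none left without DSS thymopentin 1 or 2 or DSS saline 1, and 1 without DSS saline 3.

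For 766 genes, 5.57% of those tested, the thymopentin response in DSS colitis differed from that in TNBS colitis, and in TNBS 87 of the tested genes (0.633%) were called. The TNBS count was 32 without TNBS thymopentin 1 or TNBS saline 1, 36 without TNBS thymopentin 3, 55 without TNBS saline 3, 53 without DSS thymopentin 3 and 49 without DSS saline 3. The models share no library. In a part of the genes called in DSS, the saline libraries were the ones outside the range of the TNBS libraries. For 488 of the 2372 called genes (20.6%) all 3 thymopentin libraries lay within the range of the 6 TNBS libraries while all 3 saline libraries lay beyond it on 1 side. The reverse held for 82 (3.46%), and over all tested genes the shares were 5.46% and 1.44%. Both DSS groups lay wholly beyond the range, on the same or opposite sides, for 597 of the 2372 called and 3252 of the 13745 tested genes. Acer1 had 20.7, 19.6 and 18.7 FPKM in TNBS thymopentin and 19.8, 17.1 and 19.3 in TNBS saline libraries, so its DSS thymopentin values, given above, lay just under the TNBS range and its DSS saline values far under it. Kcnn4, with 4.41, 5.9 and 5.95 FPKM in TNBS thymopentin and 4.56, 4.93 and 5.18 in TNBS saline libraries, had 2 of its 3 DSS thymopentin values above that range and all DSS saline values below it. For Crispld2 both DSS groups lay outside the TNBS range, thymopentin below it and saline above it. For H6pd all DSS thymopentin values lay below the range, while DSS saline 1 lay inside it and the other two above it. The sources used here do not say whether the models were sequenced together, so model and any such batch cannot be told apart.

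**Figure D5:**
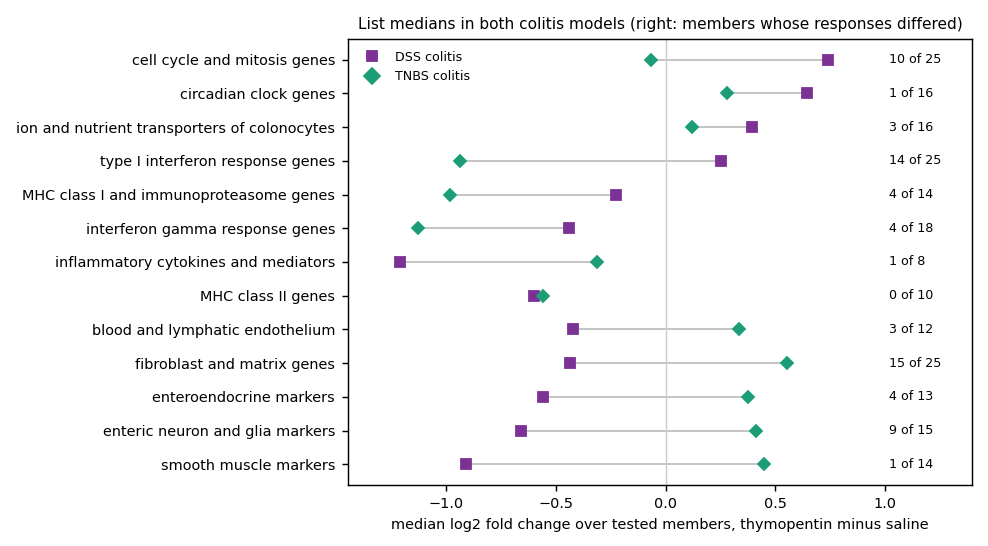
Median log2 fold change, thymopentin minus saline, over the tested members of 13 gene lists (y axis) in DSS colitis (purple squares) and TNBS colitis (green diamonds); numbers on the right give how many of the tested members responded differently between the models. The lists of endothelium, matrix, enteroendocrine cells, neurons and smooth muscle lie below 0 in DSS and above 0 in TNBS, and the type I interferon list above 0 in DSS and at -0.94 in TNBS.

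The authors' deposited table of selected genes for DSS colitis held 2326 genes, chosen at a p-value up to 0.05 and a change of 1 or more on the log2 scale. Of these 872 were higher and 1454 lower with thymopentin in the authors' deposited table. Only 853 of them averaged at least 1 FPKM and were tested here, and 600 of the 853 were called, all in the direction that the authors' deposited table gives. These 600 were 70.3% of the selected genes tested here and 25.3% of the called genes.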

How the data were processed

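RNA of mouse colon was sequenced in 12 libraries, 3 in each of 4 groups, and the 6 libraries of DSS colitis are the subject here. The FPKM of all genes were made by the authors; per the submitters' processing notes, the tools were STAR 2.5, Cuffnorm and FastQC, with DESeq 1.22.1 and build mm9, and neither their roles nor the gene models are stated. The deposited table of genes selected by the authors for DSS colitis gives log2 values per library, log2 fold changes and p-values, per the file headers. Raised back from log2, its 4548 low values over the 6 libraries together (at most 30 reads) were whole multiples of their library's step within 0.01 read. Size factors ran from 0.847 to 1.08, and the reads quoted come from these values. The relative depth so recovered was 0.793 (thymopentin 2) to 1.12 (saline 1). Reads could be recovered for these selected genes only, so no count test was run.

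Genes with a mean of at least 1 FPKM over the 6 DSS libraries were tested with limma 3.58.1 in R 4.3.3 on log2(FPKM + 1), a scale that understates changes of low genes. A gene averaging under 1 FPKM in 1 group passed that filter only through the other group. Through saline this held for Crispld2, H6pd, Saa3, Kpna1, Mfsd2a, Mmp10, Ccl22, Chrd, Nfil3, Mir7678, Il22, S100a8 and S100a9, among others. Through thymopentin it held for Ces1e, Axin2, Ephb3, Gsta3, Nox1 and Snord14e, among others. The falls and rises of these genes rest in part on the filter. The model had 4 group means over all 12 libraries (8 residual degrees of freedom), empirical Bayes with trend, 2-sided tests and Benjamini-Hochberg adjustment over all tested genes, called at an adjusted p under 0.05. The difference between the models' responses was a contrast in the same model. Members and the 61 gene lists were chosen with earlier results of these data known. Named genes are the 15 largest rises and falls among called genes whose libraries do not overlap between groups, up to 4 called genes per list by smallest p (a selection is given), a fixed set of neutrophil and inflammation genes, and 8 genes with the smallest p of the difference between models. Further genes, such as Stat3, Cxcl9, Nr3c1 and the collagens, were named after their values were seen. The labels give replicate numbers without saying what they share. Across genes, same-numbered libraries deviated together in TNBS (r of 0.13, 0.27 and 0.48) and not in DSS. Whether they were paired in the experiment is not known. Alternatives changed the pseudocount, filter, scaling, libraries, weights, spread estimate and replicate block. The procedure was tested on simulated data. Promoters are RefSeq sequences of GRCm38.p6, matched by symbol. Of the tested gene IDs, 13736 of 13745 matched the reference's names (99.9%).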

Additional observations from a re-analysis of the deposited data

Results flagged for a closer look

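The thymopentin response in DSS colitis differed from that in TNBS colitis in 766 genes by the limma contrast of the 2 responses (adjusted p under 0.05). The values below are the differences of the log2 fold changes, DSS minus TNBS, for the genes named in the report that passed this test. The response was more positive in DSS for Oas3 (2.63), Ifi27l2a (1.99), Mki67 (1.28), Ube2c (1.49) and Cdca3 (1.32). So it was for Plk1 (0.80), Cftr (1.96), Kcnq1 (0.90), Kcnn4 (1.07) and Slc17a4 (2.08). The same holds for Nxpe2 (2.85), Nox1 (1.34), Grb7 (1.89), Clock (0.89) and Acer1 (1.85). Further such genes were Ugcg (0.75), Ncoa1 (1.22), Gstm1 (0.75), Gstm3 (1.80) and Gsta3 (1.10). Others were Cyp2s1 (1.39), Acsl3 (1.05), Pdzd7 (1.93), Tmem184b (2.27) and Hoxa6 (1.20). Also more positive were Id3 (1.16), Ifit1 (2.44), Isg15 (2.24) and Ddx58 (1.01). It was more negative in DSS for Nos2 (-1.25), Osmr (-0.57), Ccl22 (-1.37), Grem1 (-2.0) and Chrd (-0.90). The same direction held for Tubb3 (-1.25), Prph (-1.63), Snap25 (-1.38), Fn1 (-1.72) and Mgp (-1.98). Further ones were Dcn (-1.34), Sst (-1.80), Crispld2 (-3.10), H6pd (-2.21) and Mfsd2a (-1.53). Also more negative were Gem (-2.09), mt-Tt (-1.81), Hk2 (-1.38) and Serping1 (-1.08). With the replicate number as a block within each model, the difference no longer passed for Clock, Gsta3, Gstm1, Gstm3, Hoxa6, Id3, Ifi27l2a, Kcnq1, Mfsd2a, mt-Tt and Osmr (adjusted p from 0.0502 for Kcnq1 to 0.0972 for Id3). Model and any sequencing batch cannot be told apart, and no cause was tested.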

How the results depend on the processing

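The number of genes called between thymopentin and saline in DSS colitis was 2372, and it stayed within 1.5 times of that under both other pseudocounts, no filter (1805), a filter over all libraries, either rescaling, the 6 DSS libraries alone (1665) and robust moderation. None of the called genes that an alternative tested changed sign (1308 of the 2372 were tested with the 5 FPKM filter and 2320 with the filter over all libraries). A filter of 5 FPKM gave 1384 calls (1076 higher, 308 lower), by testing fewer genes, and array weights gave 4041 (2868 higher, 1173 lower); the cause of that rise was not tested. Quantile normalization gave 1125 higher and 1058 lower, median-ratio rescaling 810 higher and 1056 lower, and the 6 DSS libraries alone 1078 higher. The genes whose response differed between the models numbered 766, or 419 with no filter, 409 with a filter of 5 FPKM and 2982 with array weights. With 1 library left out, the DSS calls ran from 919 (without DSS saline 3) to 2532 (without TNBS saline 3), those higher from 718 to 1821, those lower from 201 to 711, and the differences between the models from 198 to 796. The TNBS calls, 87, were 144 with a pseudocount of 0.1 FPKM, 40 with no filter and 2571 with array weights. A replicate block within each model gave 1985 DSS calls (1332 higher, 653 lower), 613 differences and 64 TNBS calls. In DSS same-numbered libraries did not deviate together (r of -0.14, 0.04 and -0.14 across genes), while those of TNBS did. The labels do not say what the numbers share, so a small shared batch in DSS remains possible.

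Values of genes that did not pass turned in sign. For Pcna the log2 fold change was -0.0151 after median-ratio rescaling, and for Vil1 it was -0.0234. For Col3a1 it was -0.0328 after quantile normalization, -0.114 after median-ratio rescaling and -0.0391 with array weights. In the same order it was -0.112, -0.113 and -0.381 for Sgk1. With 1 library left out the values ran from -0.00133 to 0.318 for Mcm2, -0.147 to 0.0842 for Col1a1, -0.108 to 0.116 for Col3a1, -0.206 to 0.115 for Krt20, -0.507 to 0.491 for Sgk1, -0.268 to 0.156 for Tsc22d3, -0.0146 to 0.614 for Ifit1 and -0.138 to 0.512 for Isg15.

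With 3 libraries a group, of unknown origin, the spread is poorly known, and depth is known only relatively. Genes under 1 FPKM, most neutrophil transcripts among them, could not be tested.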
